A study of Mus musculus with 2 samples.

Results

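Glycolytic enzymes were examined as a set of 10 genes, *Hk1*, *Hk2*, *Gpi1*, *Pfkl*, *Pfkp*, *Aldoa*, *Tpi1*, *Pgk1*, *Pgam1* and *Pkm*, out of 31053 genes and other features counted in single cells of the embryonic mouse eye. The members were chosen by name, by a rule that uses no measured value but was written with earlier results of these data known, and all 10 had transcripts in both libraries. Transcripts were counted as unique molecular identifiers (UMIs), 1 for each captured RNA molecule, with 10x 3′ chemistry. The control library came from 3 pooled *Myrf fl/fl* samples and the mutant library from 3 pooled *Rx>cre Myrf fl/fl* samples, all at e13.5 (e, embryonic day). Both groups carried the floxed *Myrf* alleles, and the mutant group also carried Cre recombinase driven by an *Rx* transgene, which acts in the early eye field that gives rise to retina and retinal pigment epithelium (RPE). Eyecups were taken without cornea, lens and optic nerve. The aim of the series was to see how loss of the transcription factor MYRF alters the developing RPE and the cells around it. The comparisons below ask how the enzyme transcripts differed between eye cell classes, and between the libraries within a class.

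Glycolysis splits glucose into pyruvate in the cytosol and yields ATP without oxygen. Hexokinase traps glucose as glucose 6-phosphate, phosphoglucose isomerase turns this into fructose 6-phosphate, and phosphofructokinase commits it to breakdown. Aldolase cleaves the sugar, triosephosphate isomerase interconverts the products, phosphoglycerate kinase makes ATP, phosphoglycerate mutase moves the phosphate, and pyruvate kinase makes ATP again with pyruvate. In the mature eye, photoreceptors convert much of their glucose to lactate, whereas the RPE passes glucose from the choroid to the retina and takes up lactate.

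The libraries held 6039 control and 6754 mutant barcodes with 63483835 and 75228861 UMIs, and 5451 and 6309 cells were kept. Clustering without the members and the related pathway genes gave 29 clusters, of which 24 were placed in 15 classes by marker genes and are called by the marker list with the ending -like. The 5 unnamed clusters held 17.4% of control and 15.1% of mutant cells. The libraries shared 72 barcodes. Levels are CPM, counts per 1000000, taken here as the part a gene had of all UMIs of a class within 1 library. Each genotype was measured in 1 library, so no test between genotypes was possible. The intervals at 95% in parentheses cover counting error only and not differences between embryos or library preparations. In RPE-like cells 12 of 13 RPE markers were detected in each library, and their summed level was 13584 CPM in control and 9557 CPM in mutant cells. *Myrf* had 155 UMIs in control RPE-like cells (74.5 CPM) and 30 in mutant RPE-like cells (20.1 CPM), a log2 ratio of -1.86 (-2.51 to -1.32).

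Positions are on GRCm38, the assembly also called mm10. *Hk1* lies at chr10:62268855-62379908 and *Pfkl* at chr10:77986947-78010083, *Hk2* at chr6:82725025-82774454 and *Tpi1* at chr6:124810586-124814296, *Gpi1* at chr7:34201330-34230336 and *Aldoa* at chr7:126795234-126800751, *Pfkp* at chr13:6579768-6648777, *Pgam1* at chr19:41911923-41918660, *Pkm* at chr9:59656368-59679375, and *Pgk1* at chrX:106187100-106203699. Pseudogenes named after *Aldoa* (2), *Pgk1* (3) and *Pgam1* (2) are annotated, and reads shared with such copies could have been dropped or split in the authors' counting. A second feature row that also carries the symbol *Aldoa* had 10 and 6 UMIs and was left out.

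Several members are textbook targets of hypoxia inducible factors, whose core binding letters are ACGTG or GCGTG, so the 250 bases before each RefSeq start site were searched for both on either strand. ACGTG was present before 5 of the 10 members and before 18.5% of 27025 genes, and GCGTG before 4 of the 10 members and 30.9% of genes. At least 1 of the motifs was found before 8 members and before 41.5% of genes. CACGTG, which holds ACGTG within it, was found before none of the members and before 6.86% of genes. The sequences before *Hk2* and *Pgk1* are shown because each held 2 matches to ACGTG, more than any other member, and that before *Pgam1* because it held both motifs. The sequence before the first start of *Hk1* held no match and is shown beside that of the other hexokinase, and a second start of *Hk1* had 3 matches to GCGTG. Sequences are from RefSeq on GRCm38.p6, 5′ to 3′ on the strand of the gene, and capitals mark ACGTG or GCGTG, or their reverse complements CACGT and CACGC. A match is a run of letters and does not show that a factor binds there.
*Hk1*, chr10:62379909-62380158, minus strand: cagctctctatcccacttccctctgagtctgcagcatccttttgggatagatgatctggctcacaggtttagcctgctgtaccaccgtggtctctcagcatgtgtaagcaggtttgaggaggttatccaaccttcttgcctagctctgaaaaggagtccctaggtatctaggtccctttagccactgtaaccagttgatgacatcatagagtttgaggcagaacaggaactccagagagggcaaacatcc
*Hk2*, chr6:82774455-82774704, minus strand: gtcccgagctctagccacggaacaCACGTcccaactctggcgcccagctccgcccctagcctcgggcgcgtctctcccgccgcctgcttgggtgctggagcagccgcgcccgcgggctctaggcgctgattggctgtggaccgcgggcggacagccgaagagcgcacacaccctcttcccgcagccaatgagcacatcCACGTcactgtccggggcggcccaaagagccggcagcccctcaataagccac
*Pgk1*, chrX:106186850-106187099, plus strand: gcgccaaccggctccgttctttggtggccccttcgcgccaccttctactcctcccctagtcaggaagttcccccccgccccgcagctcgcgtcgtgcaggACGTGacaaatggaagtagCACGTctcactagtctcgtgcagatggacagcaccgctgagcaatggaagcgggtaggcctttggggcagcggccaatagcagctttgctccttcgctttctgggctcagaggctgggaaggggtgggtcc
*Pgam1*, chr19:41911621-41911870, plus strand: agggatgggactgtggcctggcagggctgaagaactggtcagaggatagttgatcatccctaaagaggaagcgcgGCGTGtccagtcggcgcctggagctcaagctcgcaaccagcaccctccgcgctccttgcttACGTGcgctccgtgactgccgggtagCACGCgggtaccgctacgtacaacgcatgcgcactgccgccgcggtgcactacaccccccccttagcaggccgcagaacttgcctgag

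The class with the highest level differed between the enzymes. *Aldoa* and *Hk1* were highest in RPE-like cells, *Hk2*, *Gpi1* and *Pgk1* in macrophage-like cells, *Pfkl*, *Tpi1* and *Pgam1* in surface ectoderm-like cells, *Pfkp* in retinal ganglion cell-like cells and *Pkm* in photoreceptor precursor-like cells, by the mean of both libraries. The intervals of the highest class lay apart from those of the next for *Hk2* and *Pkm* only, so the top class of the other members is not settled. In the mutant library *Pgk1* was higher in melanocyte-like than in macrophage-like cells. Leaving red blood cell-like cells aside, the class with the least was Schwann or neural crest-like for 8 of the 10 genes, neurogenic precursor-like for *Hk1* and muscle precursor-like for *Pfkp*. Schwann or neural crest-like cells numbered 22 in control and 38 in mutant. Of those 8 genes, only *Tpi1* and *Pkm* had intervals there apart from those of the class above. The highest and the lowest class differed by 2.35-fold for *Pgam1*, 2.93-fold for *Gpi1*, 5.25-fold for *Aldoa* and 6.14-fold for *Pkm*. No such fold is given for *Hk2* and *Pfkp*, whose lowest class had at most 2 UMIs in a library. Members were counted as different from retinal progenitor-like cells where they differed by 2-fold in both libraries. That was so for 2 members in RPE-like cells, both higher, where 14% of 11943 genes were higher and 5.85% lower by the same rule.

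**Figure D1:**
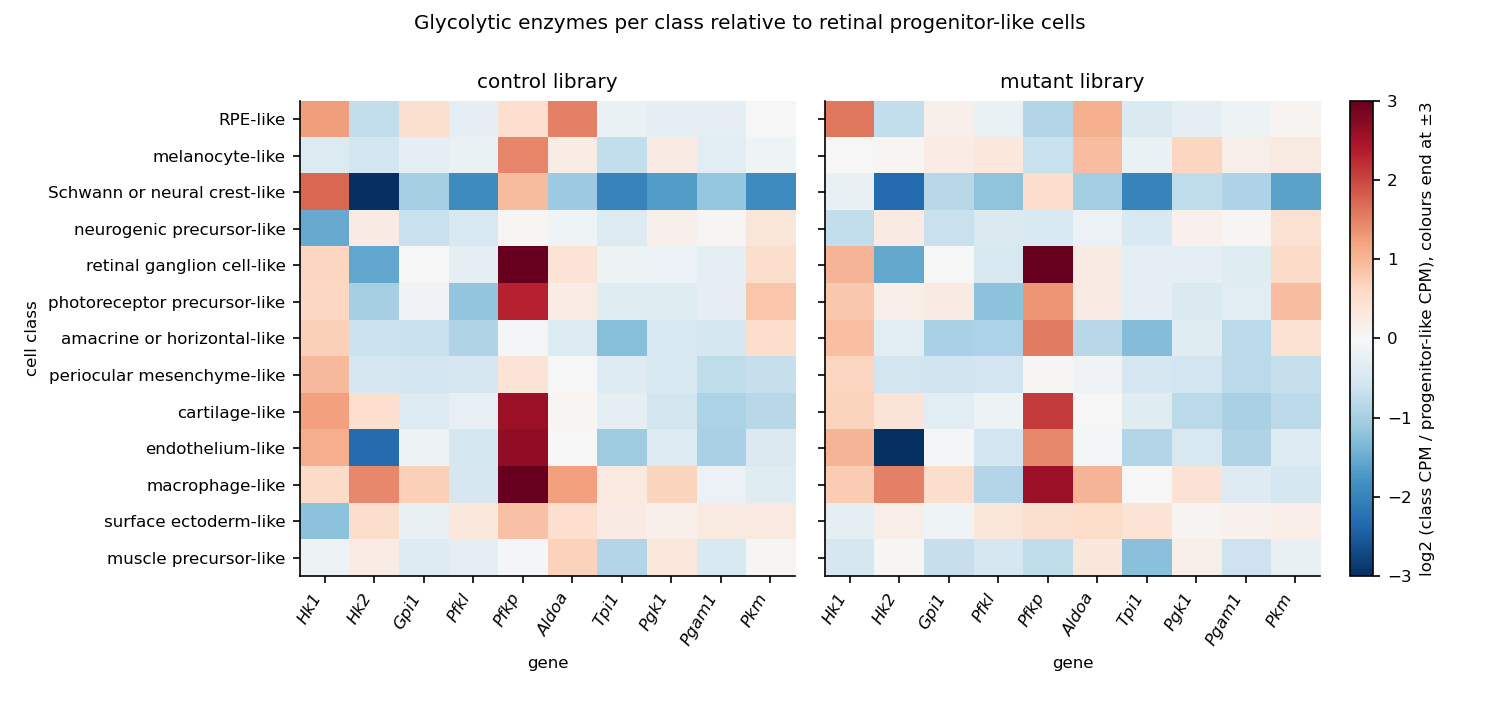
Heat map of each glycolytic enzyme (columns) in the classes (rows) relative to retinal progenitor-like cells, as log2 of the CPM ratio with 1 UMI added, for control (left) and mutant (right). Red blood cell-like cells are not shown. Red is higher and blue lower, colours end at 3, and squares that rest on few UMIs are coloured too. In both libraries *Pfkp* is red in retinal ganglion cell-like cells, *Aldoa* in RPE-like and macrophage-like cells, and the Schwann or neural crest-like row is mostly blue.

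The hexokinases differed in their distribution. *Hk1* encodes the hexokinase of most resting tissues, and in RPE-like cells it had 53 UMIs in control (25.5 CPM) and 54 in mutant cells (36.1 CPM), against 10.9 and 12.3 CPM in retinal progenitor-like cells. The log2 difference of RPE-like from retinal progenitor-like cells was 1.24 (0.76 to 1.66) in control and 1.57 (1.10 to 1.99) in mutant cells. Endothelium-like cells, at 22.8 and 24.4 CPM, were also over 2-fold above retinal progenitor-like cells, by 1.09 and 1.02 on the log2 scale, but the mutant value was 0.78 with each cell weighted equally, 0.95 without cells that had a *Mki67* or *Top2a* UMI and 0.96 in male cells, which ends that call. In the order of classes, the intervals of each class for *Hk1* overlapped those of the next, so no neighbours could be told apart. *Hk2* encodes an inducible hexokinase of growing and insulin-sensitive cells. It reached 76.6 CPM in control and 76.5 CPM in mutant macrophage-like cells, apart from the next class, cartilage-like cells at 39.5 and 35.0 CPM. Retinal progenitor-like cells had 28.2 and 26.8 CPM of *Hk2*, RPE-like cells 16.3 and 15.4 CPM, retinal ganglion cell-like cells 9.36 and 8.99 CPM, and endothelium-like cells 5.13 and 1.67 CPM. The last class rested on 9 and 3 UMIs.

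**Figure D2:**
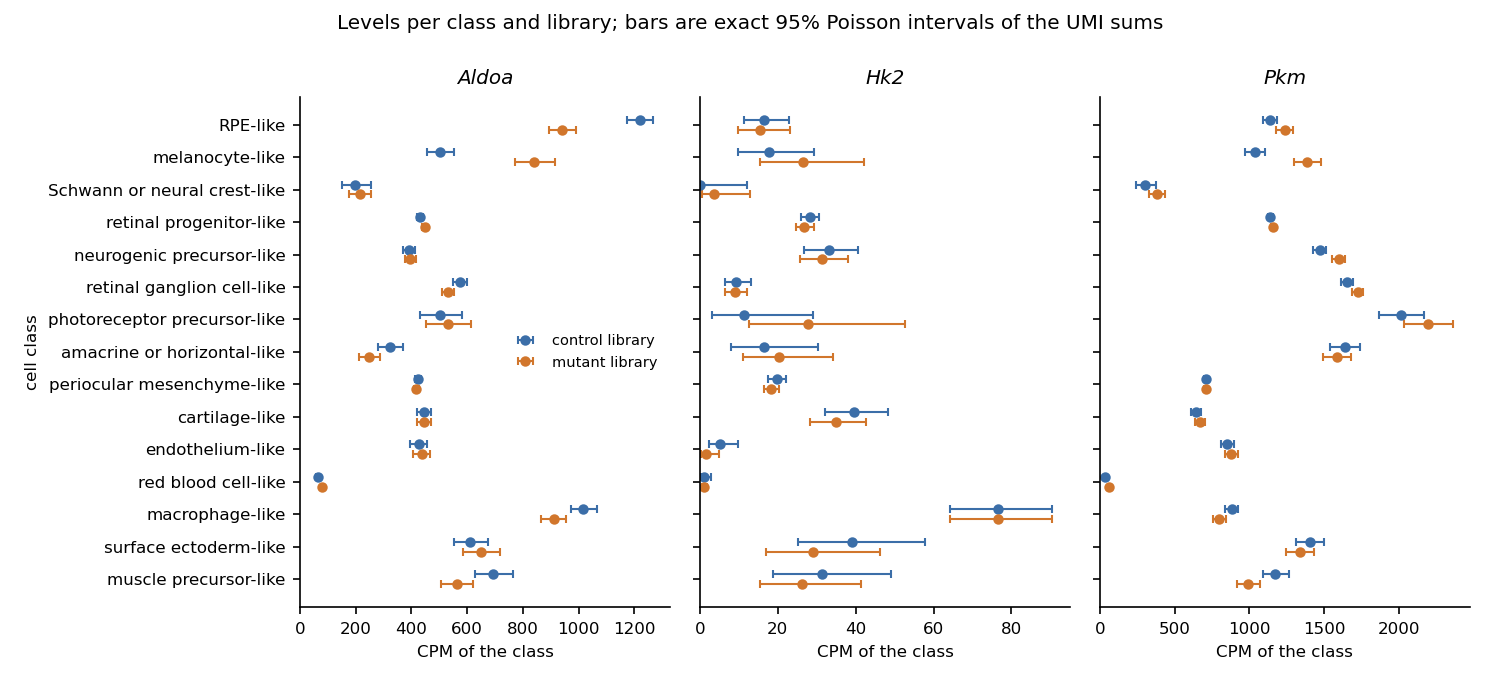
CPM of *Aldoa* (left), *Hk2* (middle) and *Pkm* (right) in each class, with blue points for the control and orange points for the mutant library, and bars for exact 95% Poisson intervals of the UMI sums. *Aldoa* lies near 1000 CPM in RPE-like and macrophage-like cells, with the mutant point below the control point in both, *Hk2* peaks at 76.6 CPM in macrophage-like cells, and *Pkm* peaks at 2012 and 2190 CPM in photoreceptor precursor-like cells.

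As a share of the UMIs of both hexokinases, *Hk2* made up 72.1% (68.8 to 75.3) in control and 68.6% (65.1 to 71.9) in mutant retinal progenitor-like cells. Neurogenic precursor-like cells, the cells leaving the progenitor pool, had 90.4% (83.0 to 95.3) and 81.5% (73.8 to 87.8). Retinal ganglion cell-like cells, the first neurons of the retina, had 35.9% (26.1 to 46.5) and 26.5% (19.7 to 34.1), below both. The share was 39.1% (28.8 to 50.1) and 29.9% (19.97 to 41.4) in RPE-like cells, 18.4% and 6.38% in endothelium-like cells, and 83.0% and 79.1% in macrophage-like cells. In all of these classes the intervals of control and mutant cells overlapped. The share was 61.0% and 64.4% in cartilage-like and 48.1% and 48.5% in periocular mesenchyme-like cells. In retinal ganglion cell-like cells the share depended on how the cells were weighted and clustered: with each cell weighted equally it was 52.9% in control cells, and at the coarser clustering resolution of 0.4 it was 47.6% and 41.4%.

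*Gpi1* encodes phosphoglucose isomerase, and its 424.6 CPM in macrophage-like cells, the mean of both libraries, was 2.93-fold its level in Schwann or neural crest-like cells. In RPE-like cells it had 374 CPM in control and 314 CPM in mutant cells. The phosphofructokinases again had different patterns. *Pfkl*, the liver type, stood at 166 and 184 CPM in surface ectoderm-like cells, at 135 and 144 CPM in retinal progenitor-like cells and at 111 and 124 CPM in RPE-like cells. *Pfkp*, the platelet type, had 74 and 97 UMIs in retinal ganglion cell-like cells (21.0 and 21.3 CPM) against 1.66 and 2.41 CPM in retinal progenitor-like cells. That log2 difference was 3.64 (3.05 to 4.31) in control and 3.13 (2.62 to 3.68) in mutant cells. By the 2-fold rule *Pfkp* was the single member higher and *Hk2* the single member lower in retinal ganglion cell-like cells, where 12.8% of 12080 genes were higher and 12.6% lower.

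*Pfkp* made up 15.9% (12.7 to 19.6) of the UMIs of *Pfkl* and *Pfkp* in control and 17.2% (14.2 to 20.6) in mutant retinal ganglion cell-like cells. The share was 1.21% and 1.65% in retinal progenitor-like cells and 1.45% and 1.37% in neurogenic precursor-like cells, with intervals far below. Outside the retina it was 14.6% and 15.3% in macrophage-like, 7.95% and 7.39% in cartilage-like and 9.89% and 6.01% in endothelium-like cells. In macrophage-like cells 1 control cell held 44.8% of the 29 *Pfkp* UMIs. In RPE-like cells *Pfkp* had 4 and 1 UMIs, which is too few to place.

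**Figure D3:**
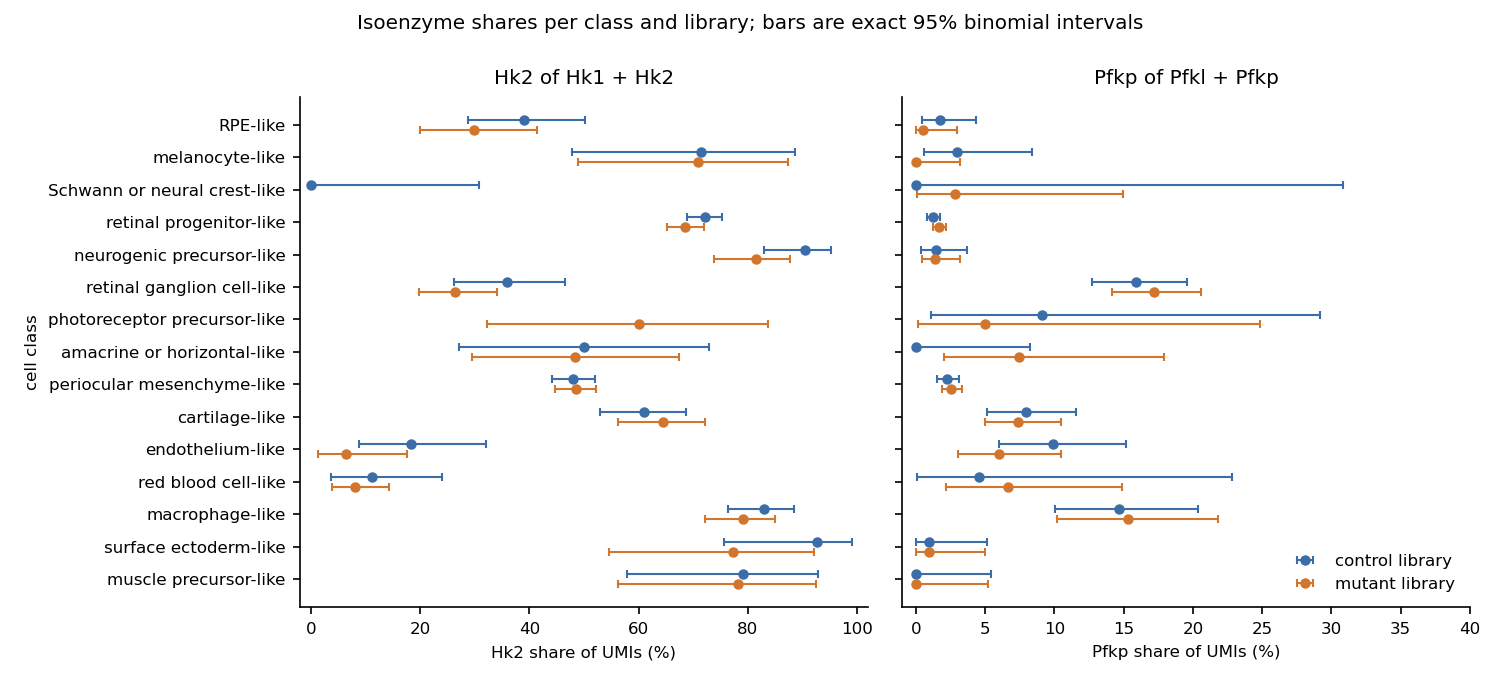
Share of *Hk2* among the UMIs of *Hk1* and *Hk2* (left) and of *Pfkp* among those of *Pfkl* and *Pfkp* (right) in each class, with blue points for the control and orange points for the mutant library and bars for exact 95% binomial intervals. The *Hk2* share is 72.1% and 68.6% in retinal progenitor-like and 35.9% and 26.5% in retinal ganglion cell-like cells, while the *Pfkp* share runs the other way, from 1.21% and 1.65% to 15.9% and 17.2%.

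*Aldoa*, the aldolase of most tissues, was with *Hk1* the other member that passed 2-fold in RPE-like cells. It had 2538 UMIs in control RPE-like cells, or 1220 CPM (1173 to 1269), and 1408 UMIs in mutant RPE-like cells, or 941 CPM (893 to 992). Retinal progenitor-like cells had 431 and 447 CPM. The log2 difference between the classes was 1.5 (1.44 to 1.57) in control and 1.07 (0.99 to 1.16) in mutant cells. The mutant difference lay near the 2-fold line: it was under 2-fold in 5 of the alternatives, at 0.90 where cells above 20000 UMIs were left out and at 0.98 in cells of male embryos, for example. Macrophage-like cells, at 1017 and 911 CPM, overlapped RPE-like cells in the order of classes, and melanocyte-like cells came next at 502 and 841 CPM. In RPE-like cells 8 of 10 macrophage markers were detected in control and 4 in mutant cells, with a summed level of 30.8 and 24.1 CPM against 12587 and 14171 CPM in macrophage-like cells.

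Cells thinned to 3000 UMIs gave a similar order. An *Aldoa* UMI was present in 93.2% (87.5 to 96.8) of 132 control and 83.8% (73.8 to 91.1) of 80 mutant RPE-like cells, against 68.2% and 71.0% of retinal progenitor-like cells and 16.3% and 19.1% of red blood cell-like cells. No class of the eye is known to lack this enzyme, and the last is the lowest share found. Without thinning, the shares were 82.0% and 81.8% in RPE-like cells, with medians of 3651 and 3738 UMIs per cell, and 87.7% and 87.8% in retinal progenitor-like cells, with medians of 10926 and 10281, so the order was the reverse of the thinned one. Of the RPE-like cells 124 control and 74 mutant cells had under 3000 UMIs and could not be thinned.

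For the members that act after aldolase, RPE-like cells were closer to retinal progenitor-like cells. *Tpi1*, triosephosphate isomerase, had 428 and 400 CPM in RPE-like and 491 and 540 CPM in retinal progenitor-like cells. *Pgk1*, phosphoglycerate kinase, had 294 and 344 CPM in RPE-like against 358 and 415 CPM in retinal progenitor-like cells, and 570 and 562 CPM in macrophage-like cells. *Pgam1*, phosphoglycerate mutase, had 733 and 836 CPM in RPE-like against 898 and 924 CPM in retinal progenitor-like cells. None of these 3 genes passed 2-fold between RPE-like and retinal progenitor-like cells. *Pkm*, pyruvate kinase of muscle and most other tissues, was nearly level between RPE-like cells (1139 and 1235 CPM) and retinal progenitor-like cells (1140 and 1158 CPM). It was higher in neurogenic precursor-like cells, with 1468 and 1595 CPM, and in each class of young neurons. These had 1650 and 1723 CPM in retinal ganglion cell-like, 1636 and 1582 CPM in amacrine or horizontal-like and 2012 and 2190 CPM in photoreceptor precursor-like cells. The intervals of the last class lay apart from those of retinal ganglion cell-like cells, although it had 29 control and 30 mutant cells. A 3′ count cannot separate the M1 and M2 splice forms of *Pkm*.

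In macrophage-like cells 3 members were 2-fold higher than in retinal progenitor-like cells, *Hk2*, *Pfkp* and *Aldoa*, and none was lower, where 13.3% of 12142 genes were higher and 18.5% lower. The median over the members was 0.62 in control and 0.48 in mutant cells on the log2 scale, beside -0.24 and -0.26 over all genes. With each cell weighted equally none of the 3 genes passed in both libraries, and *Aldoa* stood at 0.91 and 0.92. Among cells without a *Mki67* or *Top2a* UMI, transcripts of dividing cells, *Aldoa* stood at 0.82 in both libraries, and where cells above 20000 UMIs were left out at 0.76 in both. The top genes of the macrophage-like cluster also held *S100a8*, *S100a9* and *Cpa3*, which are not on the macrophage list. The class may therefore not be macrophages alone. In Schwann or neural crest-like cells 5 members were 2-fold lower, *Hk2*, *Pfkl*, *Aldoa*, *Tpi1* and *Pkm*, where 3.99% of 11685 genes were lower and 14.3% higher. The median over the members there was -1.41 and -0.99, beside 0.38 and 0.22 over all genes, in 22 control and 38 mutant cells. *Tpi1* was 2-fold lower in amacrine or horizontal-like cells (7.24% of 11698 genes, with 14.8% higher). In photoreceptor precursor-like cells *Pfkl* was 2-fold lower on 20 and 19 UMIs (5.52% of 11640 genes), and *Pfkp* passed as higher on 2 and 1 UMIs (14.7%). *Pfkp* was 2-fold higher in cartilage-like cells (13% of 12025 genes, with 9.16% lower), with 24 and 28 UMIs. In endothelium-like cells *Pfkp*, with 18 and 11 UMIs, and *Hk1* were 2-fold higher (11.2% of 11933 genes). *Hk2* was lower there on 9 and 3 UMIs (13.7%). In melanocyte-like, neurogenic precursor-like, periocular mesenchyme-like, surface ectoderm-like and muscle precursor-like cells no member passed 2-fold in both libraries. The shares of all genes that were higher and lower there were 9.55% and 7.39% in melanocyte-like, 4.69% and 5.31% in neurogenic precursor-like, 14.3% and 7.24% in periocular mesenchyme-like, 9.47% and 4.38% in surface ectoderm-like and 6.04% and 8.65% in muscle precursor-like cells. Red blood cell-like cells had 9 members lower, but 93.1% of 11741 genes were lower there and 1.81% higher, and haemoglobin made up 85.1% and 81.8% of their UMIs. With haemoglobin left out of the total, the members summed to 1205 and 1407 CPM in red blood cell-like cells against 3764 and 3966 CPM in retinal progenitor-like cells.

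Between genotypes, the enzymes of RPE-like cells differed little and in both directions. There were 256 control and 154 mutant RPE-like cells, and 9 members had at least 50 UMIs over both libraries. None of the 9 passed 1.5-fold, where 11.3% of 6909 genes did, 3.81% higher and 7.5% lower. Of the 9 members 5 were higher and 4 lower, with a median log2 ratio of 0.12 beside -0.03 over all genes. The members together held 4342 CPM in control and 4245 CPM in mutant RPE-like cells.

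*Aldoa* was lower in mutant RPE-like cells, at 941 against 1220 CPM, with a log2 ratio of -0.37 (-0.47 to -0.28). *Gpi1* was lower at 314 against 374 CPM, a log2 ratio of -0.25 (-0.42 to -0.08). *Pgk1* was higher at 344 against 294 CPM (0.22, 0.05 to 0.40), *Pgam1* at 836 against 733 CPM (0.19, 0.08 to 0.30), and *Pkm* at 1235 against 1139 CPM (0.12, 0.03 to 0.21). The ratios of *Hk1* (0.50, -0.07 to 1.08), *Hk2* (-0.07), *Pfkl* (0.16) and *Tpi1* (-0.10) had intervals that held 0. The ratio of *Aldoa* stayed below 0 in each of the 14 alternatives that gave a value, between -0.52 and -0.17. The others were less stable: *Gpi1* kept its sign in 12 of 14 alternatives (up to 0.055), *Pgk1* in 13 (down to -0.066), *Pgam1* in 13 (down to -0.064) and *Pkm* in 12 (down to -0.17).

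The lower *Aldoa* was seen within several parts of the RPE-like class. Per cell, its median was 988 CPM (quartiles 538 and 1735) in control and 798 CPM (460 and 1394) in mutant cells. In cells of male embryos, told by Y-linked transcripts, it had 1218 CPM over 64 control cells and 904 CPM over 45 mutant cells. In cells of female embryos it had 1268 CPM over 43 control cells and 966 CPM over 15 mutant cells. *Pgam1* in these cells was 690 against 931 CPM in female and 814 against 847 CPM in male embryos.

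Other measures also differed between the RPE-like cells of the libraries. The summed level of 10 cell division genes was 444 CPM in control and 765 CPM in mutant cells, and 6 of the 10 were past 1.5-fold higher, *Cdk1* (1.27), *Top2a* (1.23), *Mki67* (0.88), *Ccna2* (0.87), *Birc5* (0.75) and *Ccnb1* (0.74). Cells with a *Mki67* or *Top2a* UMI made up 23.4% of the control and 33.8% of the mutant class. *Aldoa* was 1145 against 884 CPM in the cells with such a UMI and 1250 against 991 CPM in those without. Markers of retinal ganglion cells summed to 234 CPM in control and 72.2 CPM in mutant cells, those of neurogenic precursors to 290 and 561 CPM, of red blood cells to 982 and 1499 CPM, and of surface ectoderm to 2192 and 1562 CPM. The surface ectoderm list holds *Krt18*, which was among the top 10 genes of the RPE-like cluster, so that sum is not specific to ectoderm cells. The part of all these measures in the enzyme ratios was not tested.

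**Figure D4:**
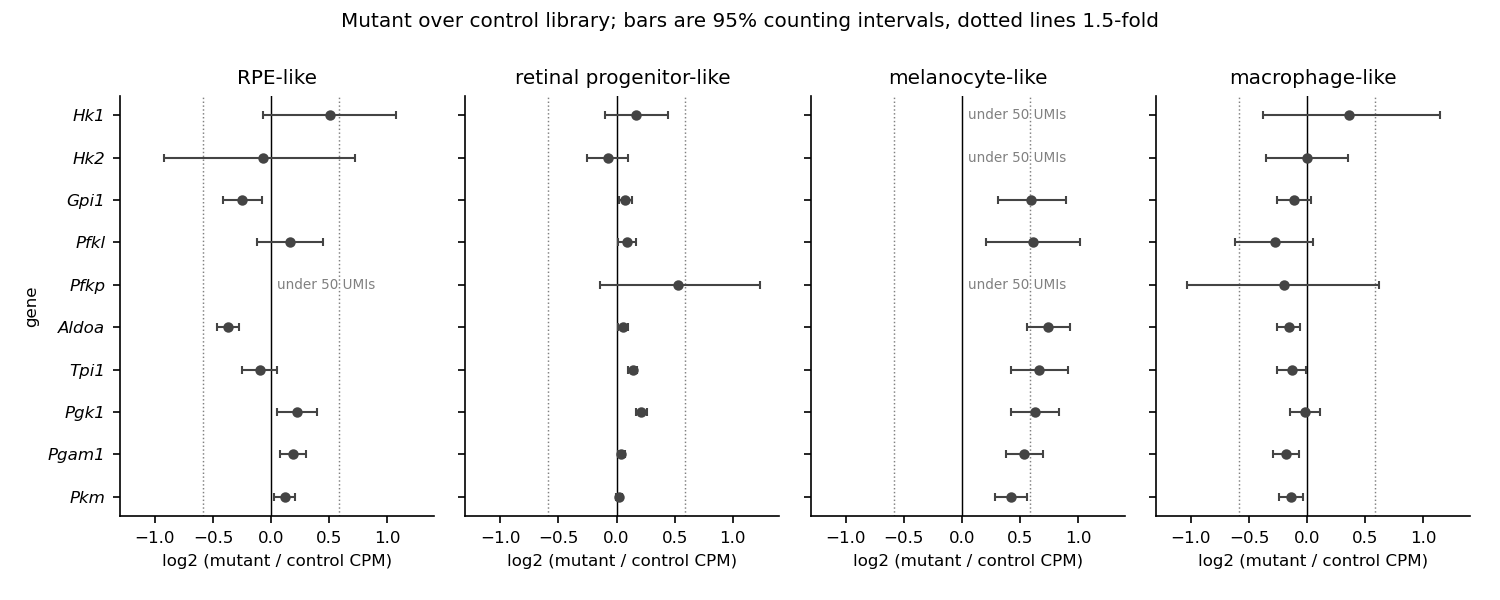
Log2 ratio of mutant over control CPM of each glycolytic enzyme in RPE-like, retinal progenitor-like, melanocyte-like and macrophage-like cells, with bars for 95% counting intervals and dotted lines at 1.5-fold. *Aldoa* is at -0.37 in RPE-like cells, and the tested members of melanocyte-like cells all lie right of 0. Most members of retinal progenitor-like cells sit close to 0, with *Pfkp* at 0.53.

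Melanocyte-like cells showed the widest shift of the enzymes between libraries. Melanocytes are pigment cells of neural crest origin and lie outside the eye field lineage. The class had 34 control and 25 mutant cells with medians of 24321 and 27156 UMIs per cell. All 7 members with at least 50 UMIs were higher in the mutant library, and 5 passed 1.5-fold, where 3.02% of 3711 genes did so in that direction. The median log2 ratio of the 7 was 0.61, beside -0.01 over all genes, and the summed level of the 10 members was 3333 CPM in control and 4933 CPM in mutant cells. *Aldoa* had 502 CPM in control and 841 CPM in mutant cells, a log2 ratio of 0.74 (0.56 to 0.93). *Tpi1* went from 294 to 467 CPM (0.67, 0.42 to 0.92) and *Pgk1* from 422 to 652 CPM (0.63, 0.42 to 0.84). *Pfkl* followed with 117 against 179 CPM (0.61, 0.21 to 1.01) and *Gpi1* with 217 against 329 CPM (0.60, 0.31 to 0.89). *Pgam1* (0.54) and *Pkm* (0.42) were higher by less than 1.5-fold. *Hk1*, *Hk2* and *Pfkp* had too few UMIs.

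The shift in melanocyte-like cells was not carried by a single cell. The median per cell of *Aldoa* was 467 CPM (quartiles 245 and 653) in control and 792 CPM (494 and 1130) in mutant cells, and no cell held more than 11.4% of the *Aldoa* UMIs. Of 16 other enzymes of glycolysis and lactate formation, 4 could be compared: *Ldha* (0.71), *Eno1* (0.56) and *Gapdh* (0.36) were higher and *Ldhb* (-0.32) was lower. Cell division genes summed to 1422 CPM in control and 1271 CPM in mutant cells, but single genes went both ways. *Top2a* (-0.90, -1.34 to -0.50) and *Ccna2* (-0.68, -1.25 to -0.17) were past 1.5-fold lower. Of those higher, *Mcm6* had the largest ratio (0.57, 0.085 to 1.07). Melanocyte markers summed to 8935 and 7585 CPM. Red blood cell markers summed to 269 CPM in control and 3473 CPM in mutant melanocyte-like cells. The same sum was 464 and 3130 CPM in retinal progenitor-like cells, where the median log2 ratio of the members was 0.08. The part of this difference in the ratios of melanocyte-like cells was not tested.

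Retinal progenitor-like cells, which Cre also reaches, gave the most precise ratios, from 1636 control and 1741 mutant cells. Of the 10 members 9 were higher and *Hk2* was lower, with a median log2 ratio of 0.08 beside -0.02 over all genes, and none passed 1.5-fold, where 2.51% of 11537 genes did. *Pgk1* had the largest ratio whose interval left out 0, at 358 CPM in control and 415 CPM in mutant cells (0.21, 0.17 to 0.26), and *Tpi1* followed with 491 and 540 CPM (0.14, 0.10 to 0.18). *Pfkp* was at 0.53 from 32 and 46 UMIs, with an interval that held 0. *Pgk1* was higher in all 15 alternatives, between 0.06 and 0.30. *Pgk1* lies on the X chromosome, and it was higher within each sex, at 361 against 389 CPM in cells of female embryos and 344 against 422 CPM in cells of male embryos. The sexes differed for other members. *Aldoa* was 455 against 425 CPM in female and 395 against 458 CPM in male cells, and *Hk2* was 30.3 against 22.7 CPM in female and 26.3 against 32.2 CPM in male cells. The median over the members was -0.01 in cells of female and 0.19 in cells of male embryos. Of 5451 control and 6309 mutant cells kept, 1959 and 1562 were read as female, and 1139 and 1765 as male. Ratios over all cells of a class can hold this difference in sex between the pools. The remaining kept cells had no sex call and are not in the values by sex.

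In the other classes the direction differed from class to class. In macrophage-like cells 9 of 10 members were lower, with a median of -0.14 beside -0.02 over all genes. *Aldoa* (-0.16, -0.26 to -0.06), *Pgam1* (-0.18), *Pkm* (-0.14) and *Tpi1* (-0.13) had intervals below 0, and none passed 1.5-fold (9.15% of 6064 genes). Those directions were not stable: *Aldoa* and *Tpi1* kept theirs in 10 of 15 alternatives, and in male cells *Aldoa* was 0.22, *Tpi1* 0.49, *Pgam1* 0.22 and *Pkm* 0.12. In retinal ganglion cell-like cells *Hk1* was higher, at 16.7 CPM in control and 24.99 CPM in mutant cells (0.57, 0.11 to 1.06), just under 1.5-fold (4.12% of 8646 genes), while *Aldoa* was -0.11 and *Pkm* 0.06. In amacrine or horizontal-like cells *Aldoa* (-0.38) and *Pgam1* (-0.23) were lower and *Pgk1* (0.33) higher, none past 1.5-fold (7.3% of 3669 genes). In muscle precursor-like cells *Aldoa* (-0.30) and *Pkm* (-0.24) were lower (9.46% of 2928 genes past 1.5-fold either way). *Tpi1* was higher in surface ectoderm-like (0.30) and endothelium-like cells (0.31), where 11.7% of 3183 and 6.54% of 6101 genes passed 1.5-fold. *Pgk1* was 1.13 (0.60 to 1.76) in Schwann or neural crest-like cells, from 33 and 138 UMIs, the single member past 1.5-fold there (4.01% of 2567 genes higher), and all 6 members compared were higher, with a median of 0.26 beside -0.06 over all genes. In red blood cell-like cells all 8 members compared were higher, and *Gpi1*, *Pgam1* and *Pkm* passed 1.5-fold, but so did 34.4% of 3172 genes, and the median over all genes was 0.41. In neurogenic precursor-like (4.72% of 7824 genes), photoreceptor precursor-like (7.35% of 2069), periocular mesenchyme-like (3.23% of 11878) and cartilage-like cells (4.54% of 7957) none of the members compared passed 1.5-fold. Over all kept cells together, the log2 ratio of *Aldoa* was -0.14, of *Hk2* -0.20 and of *Pgk1* 0.04.

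**Figure D5:**
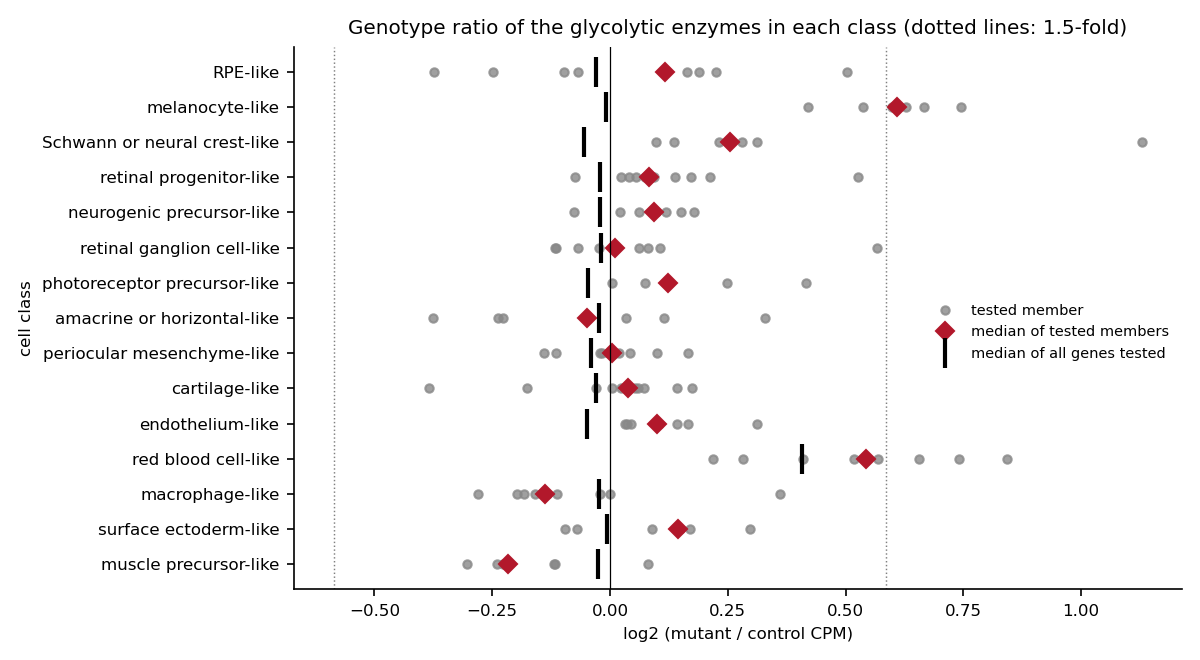
Log2 ratio of mutant over control CPM for every member with at least 50 UMIs (grey points), their median (red diamond) and the median of all genes compared (black bar) in each class, with dotted lines at 1.5-fold. The members' median is 0.61 in melanocyte-like cells beside -0.01 for all genes, while in red blood cell-like cells both are raised, at 0.54 and 0.41.

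Other genes of the pathway were compared in the same way. *Eno1*, *Ldha*, *Bsg*, *Gapdh* and *Vegfa* are named here after their values were seen. *Eno1*, enolase of most tissues, was 574 and 640 CPM in RPE-like against 1382 and 1468 CPM in retinal progenitor-like cells. *Ldha*, which makes lactate, was 536 and 622 CPM against 1114 and 1212 CPM. The lactate transporter gene *Slc16a8*, known for its restriction to the RPE, had 185 UMIs in control RPE-like cells (89.0 CPM) and 21 in mutant RPE-like cells (14.04 CPM). Its partner *Bsg* (basigin), which carries such transporters to the membrane, was 1671 and 1311 CPM in RPE-like against 448 and 442 CPM in retinal progenitor-like cells. *Aldoc*, a second aldolase, was 17.8 and 8.69 CPM against 0.517 and 0.785 CPM. Of 12 other enzymes of glycolysis and lactate formation that could be compared, 2 were 2-fold higher in RPE-like cells (*Aldoc* and *Eno2*). By the same rule 3 were lower, *Eno1* among them. *Hk3* had 0 UMIs in both RPE-like libraries. Of 6 transport genes 3 were higher (*Slc2a3*, *Slc16a8* and *Bsg*) and none lower. Over all genes 14% were higher and 5.85% lower by this rule. The calls of *Slc2a3* and *Eno2* rested on few UMIs in RPE-like cells. *Slc2a3* had 11 in control and 9 in mutant cells, and *Eno2* had 22 and 17.

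Between genotypes in RPE-like cells, 1 of 8 other glycolytic and lactate enzymes passed 1.5-fold, *Aldoc*, at -0.97 (-2.07 to -0.09) on the log2 scale, beside 11.3% of all genes. Of 4 transport genes 1 passed, *Slc16a8*, at -2.60 (-3.39 to -2.01), and *Bsg* was -0.35. Of 24 genes of pyruvate entry and the citrate cycle 1 passed, *Pdk2*, a kinase that restrains pyruvate dehydrogenase, at -0.78 (-1.74 to 0.01). None of 5 pentose phosphate genes, 1 gluconeogenesis gene and 11 other hypoxia responsive genes passed, and *Vegfa*, the vascular growth factor, was -0.58 (-0.95 to -0.22), just under the line. Of 3 dissociation stress genes *Jun* was higher by 0.63. No gene of fructose 2,6-bisphosphate turnover had 50 UMIs. Of the other 7 glycolytic and lactate enzymes, *Gapdh* (0.12), *Eno1* (0.16) and *Ldha* (0.22) had intervals above 0 and *Ldhb* (-0.15) below 0, while those of *Pfkm* (-0.42), *Eno3* (-0.12) and *Bpgm* (0.04) held 0.

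Across 15 classes in 2 libraries (30 points that share depth and library), the genes whose pattern was most like the mean of the members were *Taf10* (r = 0.954), *Ldha* (0.952), *Mrpl46* (0.950), *Sdhd* (0.943) and *Ndufb10* (0.942), of 3901 genes compared on log2(CPM + 10). *Pfkl* was most like *Mif* (0.929) and *Ppil1* (0.928). *Hk2* was most like *Gapdh* (0.747), *1190007I07Rik* and *Prorsd1*, *Hk1* like *Ddah1* (0.644), *Ccdc28b* and *Slc6a6*, and *Pfkp* like *Ier2* (0.680), *Twf2* and *Itm2b*. All of these likenesses include the points of red blood cell-like cells, and none is given without them. A shared low level at those points can raise r. Among the members, *Gpi1* and *Aldoa* were most alike once red blood cell-like cells were left out (r = 0.835 over 28 points), and *Hk1* and *Pgam1* least (-0.552). The pair *Hk1* and *Hk2* had r = -0.361. With red blood cell-like cells, which are low for almost every gene, *Pgk1* and *Pgam1* reached 0.950.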

How the data were processed

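Single-cell RNA was captured with 10x 3′ chemistry from 1 library per genotype, each from 3 pooled samples. The deposited matrices hold raw UMI counts per gene and barcode, which the authors made with Cell Ranger 7.1.0 on mm10. The submitters' processing notes also name Seurat 4.1.1, and whether intron reads were counted is not given in the sources used here. The study's methods call cells with more than 2000 counts doublets. That limit would leave out most cells and was run as an alternative only.

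From the counts, barcodes with under 200 genes (5 control, 9 mutant) or over 15% mitochondrial UMIs (515 and 371) were left out, as were doublets that Scrublet marked (scanpy 1.11.5, with 5% expected; 68 and 65 cells, 1.23% and 1.02%). Median depth was 10083 and 10638 UMIs per barcode. Cells were integrated and clustered in Seurat 5.3.0 (R 4.3.3) on 1989 variable features, without the members and the listed pathway genes, with 30 components and a resolution of 0.8. A cluster was named where at least 4 markers of a list were 2-fold up (log2 of 1) with a mean log2 of at least 0.5 over the list, each seen in at least 10% of its cells, and no other list held more of its top 10 genes. These limits were set after the clusters were seen, and 5 of 29 clusters stayed unnamed.

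UMIs were summed per class and library where each library had at least 20 cells. Ratios had 1 UMI added to each sum and exact conditional binomial intervals, levels exact Poisson intervals and shares Clopper-Pearson intervals. All were at 95% (Python 3.11.15, scipy 1.17.1). Between genotypes a ratio was read from 50 UMIs over both libraries. Between classes the 50 UMIs were counted over both classes and both libraries, so 1 class could have far fewer. Fold limits of 1.5 between genotypes and 2 between classes were used, and no test was made. The script was tested on simulated data. The members and lists were chosen with earlier results of these data known. All members were named in every class, with list genes past 1.5-fold between genotypes in RPE-like cells (up to 6 a list) and the genes most alike in pattern. Some genes that these rules name are not reported here. Embryo sex of a cell was read from *Xist* and Y-linked UMIs. Cells with neither or with both had no call and were left out of the values by sex. Alternatives covered limits on depth and mitochondrial share, doublets, integration, resolution, variable features, the denominator, weighting of cells, sex, thinning and fold limits.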

Additional observations from a re-analysis of the deposited data

Results flagged for a closer look

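The members below had log2 ratios of mutant over control whose counting intervals lay above 0 in 1 class and below 0 in another. The difference between the classes was not tested, since each genotype had 1 library.

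*Aldoa* was 0.74 in melanocyte-like and -0.38 in amacrine or horizontal-like cells. *Tpi1* was 0.67 in melanocyte-like and -0.13 in macrophage-like cells. *Gpi1* was 0.74 in red blood cell-like and -0.25 in RPE-like cells. *Pgam1* was 0.84 in red blood cell-like and -0.23 in amacrine or horizontal-like cells. *Pkm* was 0.66 in red blood cell-like and -0.24 in muscle precursor-like cells. The median over all genes in red blood cell-like cells was 0.41, so those 3 ratios stand on a raised background. *Tpi1* in macrophage-like cells kept its sign in 10 of 15 alternatives and *Gpi1* in RPE-like cells in 12 of 14.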

How the results depend on the processing

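Of 1629 genotype ratios recomputed under alternatives, 1432 stayed within the counting interval of the reported value and 193 did not. Of the ratios past 1.5-fold, 4 values turned in sign, all in red blood cell-like cells, *Gpi1* (-0.60), *Pgam1* (-0.19) and *Pkm* (-0.051) with an upper limit of 2000 UMIs per cell and *Gpi1* (-0.037) with cells weighted equally. The cause was not tested. Ratios under 1.5-fold turned in sign in other classes too, such as *Gpi1* in RPE-like cells (12 of 14 alternatives with the same sign), *Aldoa* in macrophage-like cells (10 of 15) and *Tpi1* in retinal ganglion cell-like cells (8 of 15). The 2000 UMI limit left 107 control and 64 mutant RPE-like cells.

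The median ratio of the members in RPE-like cells, 0.12, was -0.066 at a mitochondrial limit of 5%, -0.12 below 2000 UMIs, 0.012 below 20000 UMIs, 0.052 with cells weighted equally, 0.00995 in male cells and 0.023 in cells without *Mki67* or *Top2a* UMIs. In retinal progenitor-like cells, 0.08 became -0.17 below 2000 UMIs, 0.063 below 20000 UMIs, 0.10 without mitochondrial, haemoglobin and ribosomal protein genes in the total, 0.062 with cells weighted equally, -0.015 in female and 0.19 in male cells, 0.11 at a resolution of 1.6 and 0.12 without *Mki67* or *Top2a*.

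Of the 2 members higher in RPE-like than in retinal progenitor-like cells, 1 was left at 5% mitochondrial UMIs, below 2000 and below 20000 UMIs, with the reduced total, in male cells and without *Mki67* or *Top2a*, and 0 at 3-fold. The count lower, 0, was 2 with cells weighted equally and 1 at 1.5-fold. In retinal ganglion cell-like cells the count higher, 1, was 0 below 2000 UMIs and 2 in male cells or at 1.5-fold, and the count lower, 1, was 0 below 2000 UMIs, with cells weighted equally, at a resolution of 0.4 and at 3-fold. In macrophage-like cells 3 became 0 below 2000 UMIs, with cells weighted equally and without *Mki67* or *Top2a*, and 1 at 3-fold. The share of all genes was not computed under these alternatives, so these counts have no background beside them.

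The *Hk2* share in retinal progenitor-like cells was 78.6% and 80.0% below 2000 UMIs, 72.9% in male mutant cells and 68.6% in control cells without *Mki67* or *Top2a*. In retinal ganglion cell-like cells it was 52.9% in control cells weighted equally, 21.6% and 16.7% in female cells, 16.3% in male mutant cells, 47.6% and 41.4% at a resolution of 0.4 and 21.2% in control cells without *Mki67* or *Top2a*. The *Pfkp* share there was 9.09% in control cells below 2000 UMIs, 11.9% and 12.9% below 20000 UMIs, 12.5% in control cells weighted equally, 23.2% in female mutant cells and 14.1% in mutant cells at a resolution of 0.4.

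Leaving out the 72 shared barcodes moved none of the results. That alternative and the one without *Mki67* or *Top2a* were chosen after seeing the data. Alternatives that left under 20 cells in a library, such as female RPE-like cells with 15 mutant cells, gave no value. No paired analysis was possible because each genotype had 1 library. Depth limits *Pfkp* in RPE-like cells and both hexokinases in the small classes.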
